A study of Mus musculus with 8 samples.

Results

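The genes described here encode 8 small leucine-rich proteoglycans: Fmod (fibromodulin), Lum (lumican), Prelp and Omd (osteomodulin) of class II, Dcn (decorin), Bgn (biglycan) and Aspn (asporin) of class I, and Ogn (osteoglycin) of class III. They were chosen by gene symbol, and each matched 1 of the 22206 transcript clusters on the arrays. Fmod had been singled out because it was much lower after clothianidin at 10 weeks, and the other 7 were added as its relatives, to see whether they were lower too. The 10-week comparison therefore describes these genes and does not test them.

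Small leucine-rich proteoglycans are secreted proteins with a curved core of leucine-rich repeats, and many of them carry chondroitin, dermatan or keratan sulfate chains. They bind collagen and influence the width and spacing of its fibrils, and several also bind growth factors such as transforming growth factor beta. In the brain most of them are known chiefly from fibroblasts of the meninges and of vessel walls.

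RNA of the hippocampus of male mice was hybridised to 8 whole-transcript arrays. From day 1 to day 4 after birth the dams were dosed orally with vehicle or with 65 mg/kg/day of clothianidin, an insecticide of the neonicotinoid class, a dose labelled as showing no adverse effect. Male offspring were sampled at 3 or 10 weeks, in 4 groups of 2 arrays: vehicle at 3 weeks, clothianidin at 3 weeks, vehicle at 10 weeks and clothianidin at 10 weeks. The labels name neither strain nor litter and do not say that the arrays came from separate animals, so the errors and p-values reflect the spread between samples alone, and that spread may be technical. Exposure went through the dam, so what each pup received was not measured here.

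Values are log2 intensities, on which a difference of 1 is a doubling. Array medians lay between 5.73 and 5.86 and lower quartiles between 3.85 and 4.13. Markers of hippocampal excitatory neurons averaged 13.26 to 14.13. Ttr, the choroid plexus gene, read above 18 in 3 arrays (the second vehicle and the first clothianidin array at 3 weeks, and the first clothianidin array at 10 weeks), against 5.24 to 7.37 elsewhere.

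The start regions of 3 members are shown first, so that the members that stood apart can be read beside one that was level: Fmod and Ogn were the members whose exposed and vehicle arrays did not overlap at 10 weeks, and Prelp is the neighbour of Fmod on chromosome 1. Each sequence runs 5′ to 3′ in the direction of transcription over 300 bases, 250 before and 50 after the transcription start, from RefSeq on GRCm38.p6, and capitals mark the motifs found.
Fmod, chr1:134037004-134037303, plus strand: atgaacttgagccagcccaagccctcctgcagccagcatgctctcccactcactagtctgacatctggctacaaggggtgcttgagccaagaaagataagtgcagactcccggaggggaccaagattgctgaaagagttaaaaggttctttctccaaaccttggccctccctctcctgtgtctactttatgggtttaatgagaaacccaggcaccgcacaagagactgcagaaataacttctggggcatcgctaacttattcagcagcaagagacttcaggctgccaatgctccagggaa
Prelp, chr1:133921352-133921651, minus strand: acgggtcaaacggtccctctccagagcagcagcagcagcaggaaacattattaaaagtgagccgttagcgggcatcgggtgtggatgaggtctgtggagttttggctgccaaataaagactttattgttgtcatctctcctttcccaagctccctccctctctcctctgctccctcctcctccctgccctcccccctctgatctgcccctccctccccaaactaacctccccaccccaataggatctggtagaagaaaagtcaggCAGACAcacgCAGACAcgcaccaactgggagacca
Ogn, chr13:49607765-49608064, plus strand: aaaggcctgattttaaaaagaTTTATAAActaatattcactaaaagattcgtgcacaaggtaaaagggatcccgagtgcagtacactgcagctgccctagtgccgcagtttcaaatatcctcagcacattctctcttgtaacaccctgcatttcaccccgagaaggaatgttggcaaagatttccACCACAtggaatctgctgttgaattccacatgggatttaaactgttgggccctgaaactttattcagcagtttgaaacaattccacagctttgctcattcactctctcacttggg

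The motifs searched on both strands were the TATA box TATAAA, the GC box GGGCGG, the AP-1 motif TGANTCA, the SMAD-type motif CAGACA and the RUNX motif TGTGGT. Fmod held none of them. Prelp held CAGACA at 2 places just after the start, a motif present in 21.0% of 32851 start regions of this length. Ogn held TGTGGT on the opposite strand (16.8% of start regions) and TATAAA with an overlapping copy on the opposite strand (13.6%). These 2 TATAAA copies lay far from the start, 227 and 229 bases before it. Among the other members with an entry, Aspn held 2 copies of TATAAA, also far from the start, 207 and 178 bases before it. Bgn held 3 of GGGCGG (35.7% of start regions), some overlapping, and Omd held none. TGANTCA, present in 7.81% of start regions, was in none of the 6. The entries cover 6 of the 8 members, without Dcn and Lum. A match is only a match of letters, and its absence says only that these letters are not in this window.

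Most members lie beside relatives in the genome. In the RefSeq gene order of GRCm38.p6 the protein-coding genes run Optc, Prelp, Fmod at the first place, Dcn, Lum, Kera, Epyc at the second and Ecm2, Aspn, Omd, Ogn at the third, all of the same or related families, while Bgn lies on the X chromosome away from the others.

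Fmod, which binds collagen fibrils early in their assembly, read 8.14 and 7.62 with vehicle against 6.19 and 8.45 with clothianidin at 3 weeks, and 8.27 and 8.22 with vehicle against 5.60 and 5.82 with clothianidin at 10 weeks. Both exposed arrays at 10 weeks lay below every other array, and at 3 weeks the 2 exposed arrays stood on either side of the vehicle arrays. At 10 weeks the means were 8.25 ± 0.04 (SD, n = 2) with vehicle against 5.71 ± 0.16 (SD, n = 2) with clothianidin. The difference of -2.54 ± 0.55 (SE of the model over all arrays), which is 5.80-fold lower, was the third lowest of all 22206 clusters. It is the value for which Fmod was chosen, so it is given with no test. In a bulk sample, fewer cells of a type and less RNA per cell cannot be told apart.

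**Figure D1:**
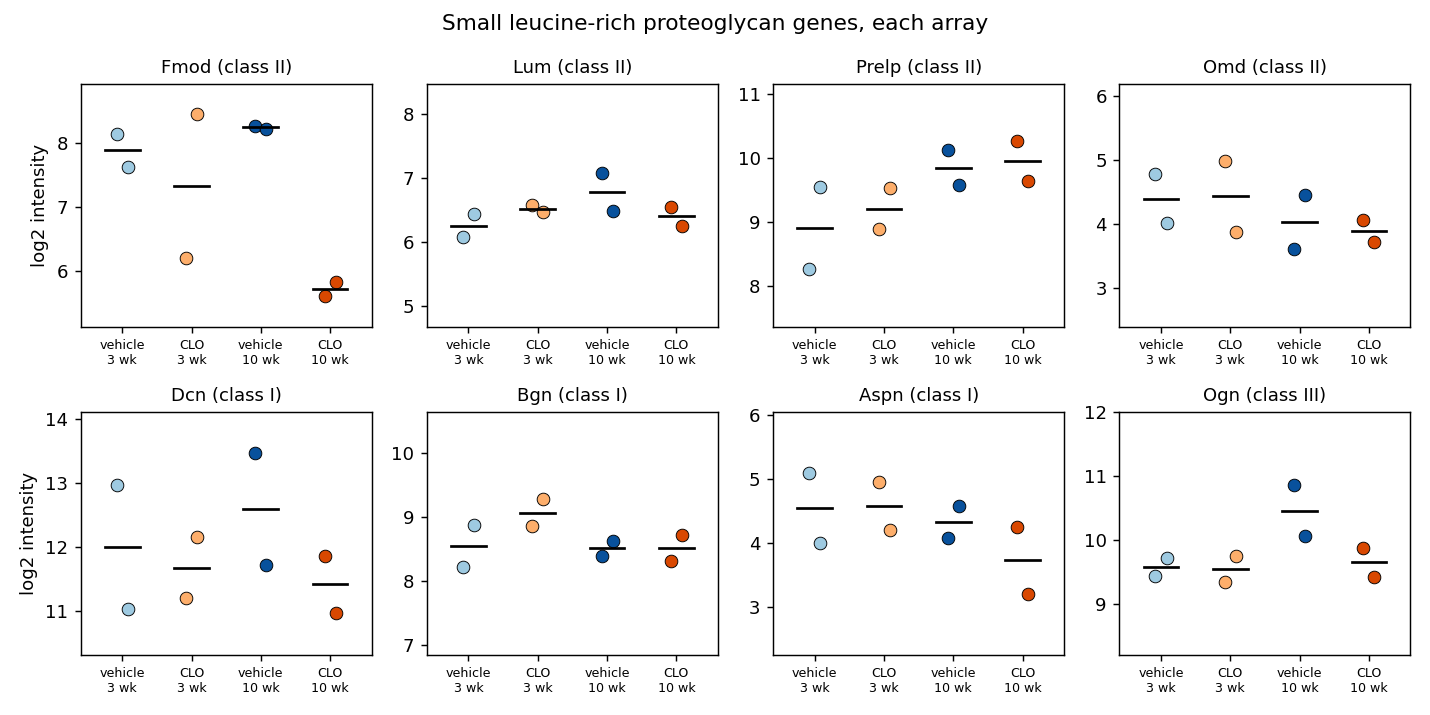
Log2 intensity of the 8 proteoglycan genes in each of the 8 arrays (points), with the group mean (bar), for vehicle and clothianidin (CLO) at 3 and 10 weeks (wk); every panel spans the same number of log2 units around its own centre. Fmod sits at 5.60 and 5.82 in the exposed arrays at 10 weeks and at 8.27 and 8.22 in the vehicle arrays, and only Fmod and Ogn have exposed arrays wholly below the vehicle arrays at that age.

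Among the other class II members, Lum, which helps to space collagen fibrils, read 6.08 and 6.43 with vehicle against 6.58 and 6.46 with clothianidin at 3 weeks, and 7.07 and 6.48 with vehicle against 6.55 and 6.25 with clothianidin at 10 weeks. The exposed arrays were the higher pair at 3 weeks, and the groups overlapped at 10 weeks, where the mean difference of -0.38 ± 0.30 shrank to -0.08 without the first vehicle array. Prelp, which anchors basement membranes to connective tissue, read 8.27 and 9.56 with vehicle against 8.89 and 9.53 with clothianidin at 3 weeks, and 10.13 and 9.58 with vehicle against 10.27 and 9.64 with clothianidin at 10 weeks. Unlike its neighbour Fmod, it was level between the exposed and vehicle arrays at 10 weeks (0.10 ± 0.43), with the groups interleaved.

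Omd, a keratan sulfate proteoglycan best known from bone, was dim: 4.78 and 4.02 with vehicle against 4.99 and 3.88 with clothianidin at 3 weeks, and 3.61 and 4.45 with vehicle against 4.06 and 3.73 with clothianidin at 10 weeks. It lay below the median of every array and below the lower quartile in 3, and its groups overlapped at both ages (-0.14 ± 0.42 at 10 weeks). Which way Omd differed at 10 weeks turned on single arrays, from -0.56 without the first vehicle array to 0.29 without the second.

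In class I, Dcn, which coats collagen fibrils and binds transforming growth factor beta, read 12.96 and 11.03 with vehicle against 11.20 and 12.15 with clothianidin at 3 weeks, and 13.46 and 11.72 with vehicle against 11.86 and 10.96 with clothianidin at 10 weeks. The first vehicle array was the higher one at both ages, and the groups overlapped at both. At 10 weeks the mean difference was -1.18 ± 0.66, while the 2 vehicle arrays alone stood 1.74 apart. It was -0.31 when the first vehicle array of that age was left out, -2.05 when the second was, and -0.73 when the second clothianidin array was.

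Bgn, the close relative of Dcn that can also signal through Toll-like receptors, read 8.22 and 8.88 with vehicle against 8.86 and 9.28 with clothianidin at 3 weeks, and 8.40 and 8.63 with vehicle against 8.31 and 8.72 with clothianidin at 10 weeks. Its exposed and vehicle arrays overlapped at both ages, and at 10 weeks the group means were equal, at 8.52 ± 0.16 (SD, n = 2) with vehicle and 8.52 ± 0.29 (SD, n = 2) with clothianidin. Aspn, a class I member that lacks the usual chain attachment site, read 5.09 and 4.00 with vehicle against 4.95 and 4.20 with clothianidin at 3 weeks, and 4.07 and 4.57 with vehicle against 4.24 and 3.20 with clothianidin at 10 weeks. Like Omd it stayed below the median of every array, and its difference of -0.60 ± 0.44 at 10 weeks rested on the second clothianidin array, without which it was -0.08.

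Ogn, the class III member, read 9.43 and 9.72 with vehicle against 9.35 and 9.75 with clothianidin at 3 weeks, and 10.86 and 10.06 with vehicle against 9.88 and 9.42 with clothianidin at 10 weeks. The 10-week vehicle arrays were the 2 highest of the 8, and the exposed arrays of that age overlapped those of 3 weeks. The difference at 10 weeks was -0.81 ± 0.33, and -0.41 when the first vehicle array was left out.

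At 10 weeks 6 of the 8 members had a lower mean after clothianidin, 1 was equal and 1 was higher, where 48.7% of all clusters had a lower and 50.7% a higher mean. Fmod is in that count by its choice, and of the other 7 members 5 were lower. With single arrays left out, 6 to 7 of the 8 were lower. The median over the members was -0.49, and -0.38 over the 7 other than Fmod, against 0.01 over all clusters. Among the 7 other than Fmod, exposed arrays lay wholly below vehicle arrays for 1, Ogn, which is a share near the 15.3% of all clusters, and wholly above them for none (15.4% of all clusters). At an adjusted p under 0.05 limma called 0.0% of all clusters in this comparison, with 820 at an unadjusted p under 0.05. After Fmod, the lowest differences were those of Dcn (2.27-fold lower), Ogn (1.75-fold lower) and Aspn (1.52-fold lower). Counted from the lowest of the 22206 clusters, Dcn ranked 39, Ogn 294 and Aspn 907. Lum ranked 2757, Omd 7022, Bgn 10821 and Prelp 13844.

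**Figure D2:**
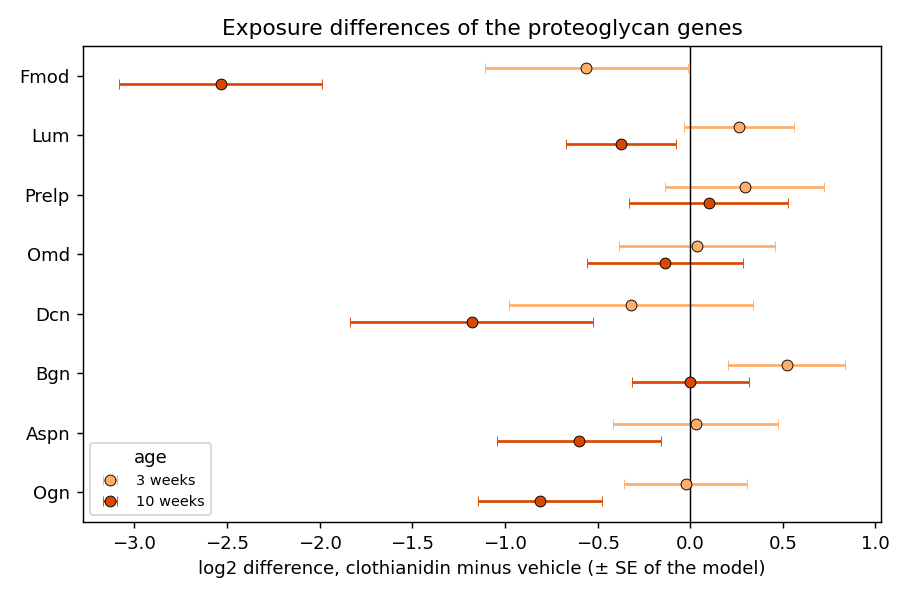
Log2 difference between clothianidin and vehicle arrays for the 8 proteoglycan genes at 3 weeks (light) and 10 weeks (dark), with the standard error of the model over all arrays (2 arrays per group). At 10 weeks Fmod stands at -2.54, Dcn at -1.18 and Ogn at -0.81, while Bgn and Prelp lie at 0.00 and 0.10.

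The 3-week arrays took no part in choosing Fmod, and there the exposure difference could be tested. No member passed an adjusted p of 0.05 in limma (lowest adjusted p 0.855, for Bgn), none reached an unadjusted p under 0.05, and limma called 0.0% of all clusters, with 1310 at an unadjusted p under 0.05. Means were lower for 3 members and higher for 5, with a median of 0.03, where 50.1% of all clusters had a lower and 49.4% a higher mean. Lum alone had arrays that did not overlap, the exposed ones above, as 17.2% of all clusters did (and 17.2% the other way), and it differed by 0.27 ± 0.30 (adjusted p 0.916 in limma). Bgn was highest, at 0.52 ± 0.32 with a 95% interval from -0.17 to 1.21. When the first vehicle array was left out Bgn differed by 0.19 and Lum by 0.09. Fmod differed by -0.56 ± 0.55 (adjusted p 0.903 in limma), with an interval from -1.76 to 0.64. Only the first clothianidin array lay below the vehicle arrays, and when it was left out Fmod differed by 0.57. Dcn and Prelp also changed sign when an array was left out, to 0.65 and -0.35 without the first vehicle array.

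Set side by side, the exposure differences at 10 weeks were lower than those at 3 weeks for all 8 members, by a median of 0.64, where 11087 of the 22206 clusters were lower. The change was -1.98 ± 0.78 for Fmod, -0.86 ± 0.93 for Dcn and -0.79 ± 0.47 for Ogn, and it was least for Omd (-0.17 ± 0.60). These values use the 10-week arrays that chose Fmod and are given with no test. When other settings were used or arrays left out, 6 to 8 members had this direction.

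The age comparison, 10 against 3 weeks averaged over both exposures, is balanced against the exposure comparison and was tested. No member passed, while limma called 11.2% of all clusters, 6.37% higher and 4.84% lower at 10 weeks. Means were higher at 10 weeks for 4 members and lower for 4, where 55.9% of all clusters were higher and 43.8% lower. A single member, Prelp, reached an unadjusted p under 0.05. Prelp was higher at 10 weeks by 0.84 ± 0.30 (adjusted p 0.0931 in limma), with each 10-week array above each 3-week array, the closest being 9.58 and 9.56, as in 11.8% of clusters (7.89% the other way). The Prelp age difference was 1.17, with an adjusted p of 0.0278, when the second vehicle array of 3 weeks was left out, and 0.52 when the first was. Ogn differed by 0.49 ± 0.24 (adjusted p 0.188), Aspn by -0.54 ± 0.31 (0.278) and Omd by -0.46 ± 0.30 (0.335). Dcn, Lum and Bgn differed by 0.17, 0.20 and -0.30. Single arrays moved these values by over 1.5 times: without the first vehicle array of 10 weeks Ogn differed by 0.29, Lum by 0.05 and Dcn by -0.27. Aspn differed by -0.27 when the first vehicle array of 3 weeks was left out, Bgn by -0.13 when the second was, and Omd by -0.18 when the first clothianidin array of 3 weeks was.

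Fmod differed by -0.62 ± 0.39 with age, a mean of opposite values that takes in the 10-week clothianidin arrays for which it was chosen, so nothing is read from its place among the calls. Its vehicle arrays were higher at 10 weeks than at 3 weeks, with a difference of 0.37 ± 0.55, smaller than its error. The closest of these arrays were 8.22 and 8.14. Its clothianidin arrays were lower at 10 weeks, with a difference of -1.61 ± 0.55, the closest being 5.82 and 6.19. The mean over both exposures was -1.19 when the clothianidin array that read 6.19 was left out, and -0.06 when the other clothianidin array of 3 weeks was. The order of the group means was the same for Fmod and Dcn: vehicle at 10 weeks highest, then vehicle at 3 weeks, clothianidin at 3 weeks and clothianidin at 10 weeks. For Fmod the vehicle and clothianidin arrays of 3 weeks overlapped. Its vehicle arrays of 10 weeks stood above those of 3 weeks, but below the 3-week clothianidin array that read 8.45. Its clothianidin arrays of 10 weeks stood below all others. For Dcn all neighbouring groups overlapped. For Ogn the vehicle arrays at 10 weeks stood above the other 3 groups, which overlapped each other.

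**Figure D3:**
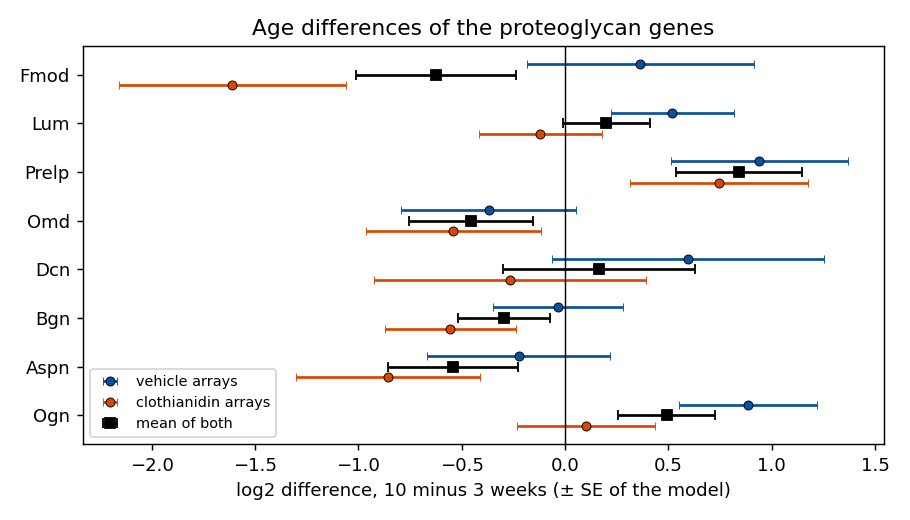
Log2 difference between 10 and 3 weeks for the 8 proteoglycan genes in vehicle arrays (blue), clothianidin arrays (orange) and averaged over both (black squares), with the standard error of the model. Fmod stands at 0.37 in vehicle and -1.61 in clothianidin arrays, and Prelp at 0.84 over both.

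Across the 8 arrays the members did not move as 1 block. Of their 28 pairs, 13 had a positive and 15 a negative Pearson r, with a median of -0.03. The highest were Omd with Aspn (0.86), neighbours in the genome that are both dim, and Lum with Ogn (0.84). The other neighbouring pairs gave -0.21 for Fmod with Prelp, 0.37 for Dcn with Lum and -0.54 for Omd with Ogn. Fmod ran closest to Dcn (0.58) and Ogn (0.43). These values describe 8 arrays that share ages and exposures in 4 groups of 2.

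Other genes of the same matrix were taken from lists by role, and their age calls stand beside the 11.2% of all clusters called (6.37% higher, 4.84% lower). Of 9 further family members, 3 fell with age, namely Chadl (-1.04 ± 0.19, adjusted p 0.0104 in limma), Kera (-1.12) and Podnl1 (-0.71), and 1 rose, Optc (0.93 ± 0.25, adjusted p 0.0386). Kera, Podnl1 and Optc lay below the lower quartile in 7, 8 and 4 arrays, and with single arrays left out in turn their calls held in 6, 0 and 1 of 8 cases, against 8 of 8 for Chadl. At 10 weeks 5 of the 9 had a lower mean after clothianidin, with a median of -0.09, and the dim gene Epyc had the lowest, at -0.84 ± 0.38. Among the collagens that the family binds, 10 of 13 were lower after clothianidin at 10 weeks (48.7% of all clusters), with a median of -0.24, and 10 of 13 at 3 weeks (50.1% of all clusters), with a median of -0.34. The fibril-associated collagen gene Col14a1 differed by -0.63 ± 0.29 at 10 weeks and -0.76 ± 0.29 at 3 weeks (adjusted p 0.846 in limma), below the lower quartile in all 8 arrays. No collagen passed in the age comparison.

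Of 14 genes of collagen maturation 3 fell with age, Plod2 and Lox, which modify and crosslink collagen, and the collagen chaperone gene Serpinh1 (-1.04 ± 0.23, adjusted p 0.0183 in limma). Of 10 proteases that can cleave the family, Adamts4 fell (-1.55 ± 0.27, adjusted p 0.00902) and also had the largest exposure difference of the list at 10 weeks, 1.11 ± 0.39, with exposed arrays at 6.40 and 6.90 above vehicle arrays at 5.96 and 5.13. Of 27 genes that build the sugar chains, 2 rose, Chpf (1.23) and B3gat3 (1.07), near the 6.37% of all clusters called higher. In the transforming growth factor beta list of 19 genes Smad4 rose and Smad7 fell, and of 16 receptors Insr rose and Itgb1 fell, both lists near the 11.2% of all clusters called. Of 27 other brain proteoglycans and link proteins, Hapln4, Hapln2 and Spock3 rose and Hapln1 fell. The medians of these 6 lists at 10 weeks after clothianidin ran from -0.07 to 0.16, and no gene of any list passed at 3 weeks. With single arrays left out in turn, the age calls of Plod2, Adamts4, Smad4 and Hapln4 held in 8 of 8 cases. Those of Chpf, Smad7 and Hapln2 held in 6, B3gat3 in 7, Serpinh1 in 4, Hapln1 in 3, Spock3 in 2, Lox and Insr in 1 and Itgb1 in 0. Without the 3 arrays with Ttr above 18 the model kept 1 residual degree of freedom. That is too few for its age calls to be set beside these. Higher and lower calls with age numbered 1415 and 1075 over all clusters, 983 and 1067 after quantile normalisation, and 992 and 1283 with each array centred on its median.

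**Figure D4:**
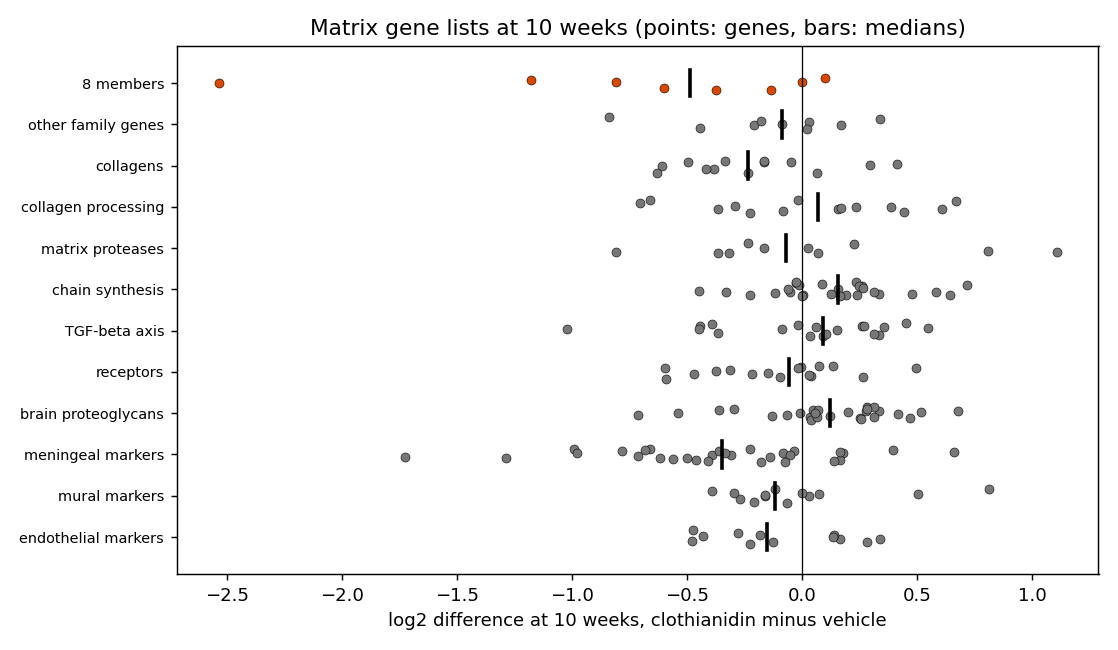
Log2 difference between clothianidin and vehicle arrays at 10 weeks for each gene (points), with the median of each list (bar). Shown are the proteoglycan family, the matrix gene lists and the meningeal, mural and endothelial marker lists. The other marker lists are not drawn: their medians were 0.31 for neurons, 0.35 for oligodendrocytes, 1.16 for choroid plexus, -0.0025 for astrocytes and 0.005 for microglia. The 8 members have a median of -0.49, the collagens -0.24 and the meningeal markers -0.35.

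Markers of meningeal and perivascular fibroblasts, the cells from which these proteoglycans are chiefly known, mostly had lower means at 10 weeks too. Of 30 measured markers 24 had a lower mean after clothianidin (48.7% of all clusters) and 6 a higher one (50.7%), with a median of -0.35. In 16 the exposed arrays lay wholly below the vehicle arrays (15.3% of all clusters), and in 2 wholly above (15.4%). Ptgds, a prostaglandin synthase of the leptomeninges, read 15.27 and 13.79 with vehicle against 13.18 and 12.43 with clothianidin. The transporter gene Slc47a1 read 4.59 and 5.03 against 3.44 and 3.61, and it was dim, below the lower quartile in 3 arrays. With single arrays left out the difference ran from -2.465 to -0.985 for Ptgds and from -1.505 to -1.065 for Slc47a1. The mean level of the list was 7.01 to 7.07 in vehicle and 6.51 to 6.85 in clothianidin arrays at 10 weeks, and 7.00 to 7.03 and 6.82 to 7.13 at 3 weeks. On the summed scale (log2 of the summed intensities) the ranges overlapped at 10 weeks, at 14.87 to 15.74 and 13.81 to 15.19. Of the 30 markers 2 lay below the lower quartile in every array. With age 20 of the 30 had lower means and 10 higher (43.8% and 55.9% of all clusters), with a median of -0.16. Only Slc22a2 and Foxc1 passed, both higher (adjusted p 0.0239 and 0.0295 in limma), near the 6.37% of all clusters called higher. Their calls held in 3 and 0 of the 8 cases with an array left out, and Slc22a2 lay below the lower quartile in 3 arrays.

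Over the 8 arrays the Pearson r with the mean level of these markers was 0.84 for Fmod (Spearman rho 0.86), 0.57 for Dcn (0.57), 0.49 for Ogn (0.64) and 0.46 for Aspn (-0.12). It was 0.32 for Lum (0.17), 0.12 for Bgn (0.29), 0.02 for Omd (-0.38) and -0.03 for Prelp (-0.05). The value for Fmod includes the 10-week clothianidin arrays whose low Fmod chose it, and the marker list was drawn up with earlier results known, so these values are a description only. The arrays with the lowest marker level were the second clothianidin array at 10 weeks (6.51), the first clothianidin array at 3 weeks (6.82) and the first clothianidin array at 10 weeks (6.85), the same 3 in which Fmod was lowest, though in another order. The part of these markers in the Fmod difference was not tested. Mural and endothelial markers had medians of -0.12 and -0.16 at 10 weeks. Over the 8 arrays Pearson r with the mean mural level ran from -0.42 (Lum) to 0.66 (Bgn), with Fmod at 0.50. With the mean endothelial level r ran from -0.68 (Omd) to 0.63 (Bgn), with Fmod at 0.28. With the mean choroid plexus level r ran from -0.48 (Fmod) to 0.23 (Omd). These values too are a description only. Of 11 neuron markers 10 had higher means after clothianidin (50.7% of all clusters), with a median of 0.31. In 5 of them the exposed arrays lay wholly above the vehicle arrays (15.4% of all clusters). Of 9 oligodendrocyte markers 8 had higher means (50.7% of all clusters), with a median of 0.35, and 4 lay wholly above (15.4%). The part of these marker lists in the differences of the members was not tested. Choroid plexus markers had higher means after clothianidin in 14 of 14 cases at 10 weeks (50.7% of all clusters). Their mean level was 8.67 in the first exposed array, 4.59 in the second and 5.06 to 5.17 in vehicle arrays. Without the first exposed array Fmod differed by -2.43.

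**Figure D5:**
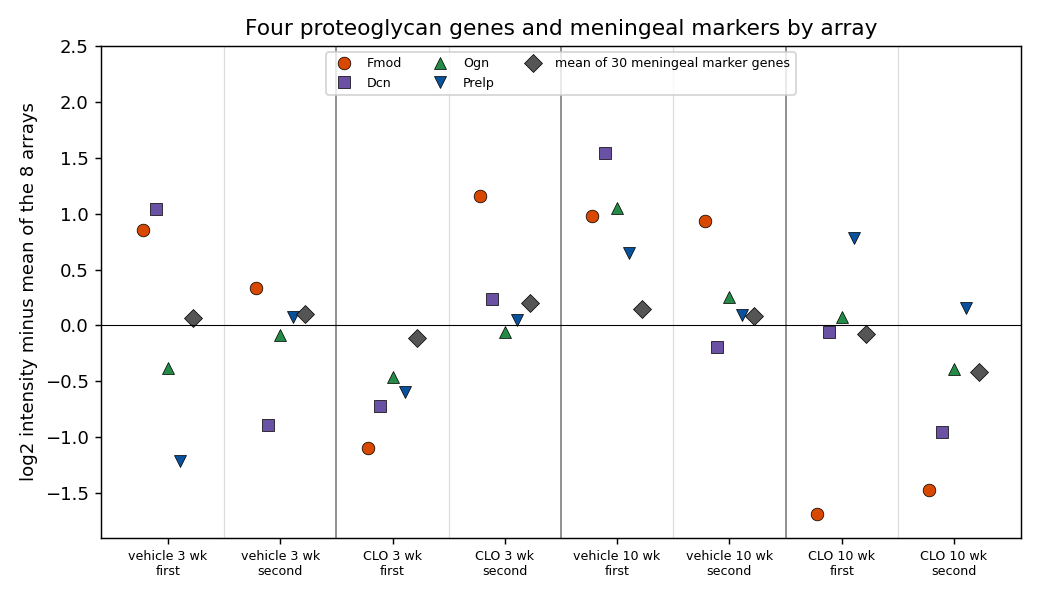
Log2 intensity minus the mean of the 8 arrays, for Fmod, Dcn, Ogn, Prelp and the mean of 30 meningeal marker genes, in each array (wk, weeks; CLO, clothianidin). Fmod and the marker mean are lowest in the same 3 clothianidin arrays, 2 at 10 weeks and 1 at 3 weeks, and the marker mean spans a much smaller range than Fmod.

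Among clusters with a gene name, leaving out predicted genes, Riken clones, olfactory and vomeronasal receptors and small RNAs, the profiles over the 8 arrays most like that of Fmod were those of Lemd2 (r = 0.99), Gbp4 (0.97), Coa4 (0.96), Defa27 (0.94) and Tfpt (0.92), all over smaller ranges: Lemd2 ran from 5.79 to 6.55 where Fmod ran from 5.60 to 8.45. Their Spearman rho was 0.90, 0.74, 0.78, 0.79 and 0.95 in that order, and Coa4 was dim, at 2.76 to 3.53. None of the 5 is on the matrix or meningeal lists. The mean of the other 7 members was most like Mlana (0.96), Selenov (0.94), Mitd1 (0.93), Ccl11 (0.91) and Corin (0.90). Spearman rho for these was 0.79, 0.59, 0.83, 0.63 and 0.62, and Mlana (3.14 to 3.90) and Corin (2.89 to 4.39) were dim. Of the symbols of these kinds, 2 were closer to Fmod than Tfpt, and 1 was closer to the mean of the 7 than Ccl11. The values describe likeness over 8 arrays and carry no test.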

How the data were processed

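Labels state 250 ng of total RNA per array, an integrity number above 7.0 and biotin labelling. The authors deposited log2 intensities; the submitters' processing notes name RMA without a version. Values ran from 1.57 to 19.93, a log2 range, and joint normalisation of the arrays is not given in the sources used here, nor is the genome build. All 22206 clusters were used, 19572 with 1 symbol in the platform annotation and 2634 with none. Background per probe is not known, and the number of arrays limits the precision.

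In limma 3.58.1 under R 4.3.3, each group had its own mean (4 residual degrees of freedom). Tests were two-sided, with Benjamini-Hochberg adjustment over all clusters at 0.05, and the code was tested on simulated data. The genes named were the members; from each list up to 4 past the threshold with age, otherwise the 2 with the lowest p, and up to 2 with the largest exposure differences; and the 5 most alike in profile. Members and lists were chosen with earlier results of these data known. Of all clusters 11.2% passed the threshold with age. The marker lists of astrocytes, oligodendrocytes, microglia and neurons had 0 of 10, 8 of 9, 1 of 9 and 1 of 11 genes past it (the 8 lower, the others higher). Those of mural cells, endothelium and choroid plexus had 1 of 13 (lower), 0 of 12 and 0 of 14. Alternatives were looser thresholds, other variance priors, only the groups compared, a replicate block, array weights, a filter at the median level, quantile normalisation, median centring, gene means, leaving out each array, and leaving out the 3 arrays with Ttr above 18.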

Additional observations from a re-analysis of the deposited data

Results flagged for a closer look

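The age difference of Fmod had opposite signs in the 2 exposures: both vehicle arrays were higher at 10 than at 3 weeks and both clothianidin arrays were lower. The rise in vehicle arrays, 0.37 ± 0.55, was smaller than its error, and the fall in clothianidin arrays was -1.61 ± 0.55. The clothianidin minus the vehicle difference was -1.98. This difference was not tested, since it uses the arrays for which Fmod was chosen.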

How the results depend on the processing

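The count of members past the threshold was 0 at 3 weeks in each setting run. With age it was 0, and 1 (Prelp) at an adjusted p under 0.1 and at an unadjusted p under 0.05 with at least 1.5-fold difference; leaving out single arrays gave 0 to 1, with Prelp past it without the second vehicle array and Fmod, whose age mean takes in the arrays that chose it, without the first clothianidin array, both of 3 weeks. The members lower at 10 weeks numbered 6 to 7 with single arrays left out and 4 of the 6 that passed a filter at the median level. The Fmod difference at 10 weeks ran from -2.65 to -2.43 over all settings. Signs at 3 weeks turned without single arrays, over ranges of -1.69 to 0.57 for Fmod, -0.35 to 0.94 for Prelp, -0.52 to 0.59 for Omd, -1.29 to 0.65 for Dcn, -0.52 to 0.58 for Aspn and -0.23 to 0.18 for Ogn; and without the 3 arrays with Ttr above 18 to 0.31 for Fmod, -0.90 for Omd, -0.89 for Aspn and 0.32 for Ogn, which also turned to 0.025 with median centring. The Dcn age difference turned to -0.0292 after quantile normalisation, to -0.78 without those 3 arrays, and ran from -0.32 to 0.65 with single arrays left out. The cause was not tested. The count of clusters called with age was 2490, with 1143 of the 11104 at or above the median level and 628 to 2550 when single arrays were left out (lowest without the second clothianidin array of 10 weeks, and at most 1357 without any one array other than the second vehicle array of 3 weeks), and 0 without those 3 arrays, where the model keeps 1 residual degree of freedom and 4127 clusters had an unadjusted p under 0.05. The labels do not say whether the replicate numbers pair the arrays. Between groups, r of same-numbered deviations ran from -0.27 to 0.14, which does not settle it. With the replicate block limma called 994 higher and 809 lower clusters with age and no member. The 2 arrays per group limit the precision of each value.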
